A study of Mus musculus with 8 samples.

Results

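Hsd3b5 and 9 further genes of the growth hormone axis were followed across all 8 liver arrays of a study of the nuclear receptor LXRα. They are Slco1a1, Elovl3, Cyp2d9, Igf1, Igfals, Ghr, Stat5b, Socs2 and Cish. Every probe set, a group of short probes on the array designed on 1 transcript, was taken if the platform's annotation gave it the symbol of 1 of these genes. This gave 17 of the 22690 probe sets on the array, for 10 of the 12393 genes with a probe set of their own symbol. Hsd3b5 was chosen because of its measured values in these livers, so it is described without a test. The other 9 genes were chosen for their place in the axis, with earlier results of these data known. The comparison asked if they followed Hsd3b5. The gene lists used below were chosen with the same knowledge, so counts over members and lists are not an independent check.

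Each array measured RNA from the liver of 1 mouse. Every mouse, controls included, lacked the LDL receptor on a C57B6 background and ate a Western diet for 12 weeks. All of them received an adeno-associated virus (AAV2.8) when 10 weeks old and were studied at 8 months of age. In the virus a human thyroxine binding globulin promoter, which is active in liver, drove either human LXR alpha (LXRα) or GFP, the control transgene. In addition, T0901317, a synthetic LXR agonist, or vehicle was injected intraperitoneally over 3 days, the agonist at 5 mg/kg. The 4 groups of 2 mice each were LXRα T0901317, LXRα vehicle, GFP T0901317 and GFP vehicle. The mice of every group also kept their own LXR genes, and the sex of the mice is not given in the labels used here.

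Growth hormone from the pituitary binds its receptor on hepatocytes, and the receptor's kinase JAK2 then phosphorylates STAT5, which enters the nucleus and activates genes such as Igf1, Igfals, Socs2 and Cish. In mice the hormone is released in sharp pulses in males and more evenly in females, and this pattern sets many sex differences of liver gene expression. Hsd3b5, Slco1a1, Elovl3 and Cyp2d9 are textbook examples of genes expressed more in male than in female mouse liver, and their male level is lost where STAT5b is missing. Hsd3b5 encodes a hydroxysteroid dehydrogenase that works as a ketosteroid reductase in steroid inactivation.

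Promoter sequence was looked up because STAT5 binds sites of the form TTCNNNGAA. Apart from the free bases N, this pattern reads the same on both strands. RefSeq start sites on GRCm38.p6 were found for 8 of the 10 genes, with 12 windows of 300 bases reaching from 250 bases before to 50 bases after a start. Elovl3 and Socs2 had no entry. Shown here are the promoters of Hsd3b5, of Slco1a1 and Igfals, which stood nearest to it among the 9, and of Cish, whose window held the motif more than once. Each runs 5′ to 3′ in gene orientation from 250 bases before the start to 30 bases after it, and capitals mark the motif.
Hsd3b5, chr3:98645505-98645784, minus strand: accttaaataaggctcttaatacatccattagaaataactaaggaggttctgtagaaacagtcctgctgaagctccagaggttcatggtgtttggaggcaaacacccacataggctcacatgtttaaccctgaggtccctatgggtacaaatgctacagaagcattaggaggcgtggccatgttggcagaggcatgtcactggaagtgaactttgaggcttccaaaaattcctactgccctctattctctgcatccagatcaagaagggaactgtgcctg
Slco1a1, chr6:141946933-141947212, minus strand: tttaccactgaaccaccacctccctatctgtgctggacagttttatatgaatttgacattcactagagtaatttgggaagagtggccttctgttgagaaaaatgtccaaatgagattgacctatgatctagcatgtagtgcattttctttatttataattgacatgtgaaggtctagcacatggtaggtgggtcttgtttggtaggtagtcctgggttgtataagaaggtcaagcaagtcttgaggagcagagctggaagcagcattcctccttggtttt
Igfals, chr17:24877981-24878260, plus strand: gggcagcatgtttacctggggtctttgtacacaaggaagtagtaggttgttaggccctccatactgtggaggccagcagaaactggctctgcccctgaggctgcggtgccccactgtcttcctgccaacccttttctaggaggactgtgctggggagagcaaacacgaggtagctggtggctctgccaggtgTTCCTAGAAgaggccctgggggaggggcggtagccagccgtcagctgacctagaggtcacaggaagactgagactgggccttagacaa
Cish, chr9:107296409-107296688, plus strand: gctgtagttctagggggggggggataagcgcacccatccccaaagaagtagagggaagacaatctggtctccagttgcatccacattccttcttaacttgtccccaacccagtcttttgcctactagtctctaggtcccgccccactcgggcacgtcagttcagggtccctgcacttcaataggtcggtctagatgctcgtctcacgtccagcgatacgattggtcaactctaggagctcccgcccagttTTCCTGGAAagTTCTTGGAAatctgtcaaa
The motif was absent from the windows of Hsd3b5 and Slco1a1. The Igfals window held TTCCTAGAA 58 bases before the start, and a second of the 3 Igfals windows held TTCTCAGAA 236 bases before its own start. In Cish, the feedback inhibitor, TTCCTGGAA began at the start site itself and TTCTTGGAA began 11 bases after it. The 3 windows with a motif belonged to 2 genes. Over all 32851 promoter windows of the table, 8.30% held at least 1 such motif and 0.457% held 2 or more. A match describes letters only, and no match in this window says nothing about binding of STAT5 elsewhere.

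Across the arrays the median intensity of all probe sets was 21.0 to 23.2, and 15838 probe sets passed a filter on dim signal. Of the 17 probe sets followed here 16 passed, all but 1 of those for Stat5b. Intensities are the linear values deposited by the authors, and log2 values were taken after raising intensities to a floor of 7.50. The ratio of 3′ to 5′ signal for β-actin, a sign of RNA quality, was 2.75 and 36.3 in the LXRα T0901317 group and 2.61 and 3.08 in the LXRα vehicle group. It was 7.56 and 11 with GFP T0901317 and 2.21 and 2.08 with GFP vehicle, so the 3 arrays with a high ratio all came from T0901317 groups. Fits with this ratio as a term, and counts without those 3 arrays, are given further below. How far the ratio accounts for any difference was not tested. Markers of hepatocytes, the cells in which these genes are mainly expressed, were bright on every array, with summed intensities of 80857 to 100174 in LXRα T0901317, 91749 to 104388 in LXRα vehicle, 77296 to 89144 in GFP T0901317 and 86288 to 90958 in GFP vehicle livers. In RNA from whole liver, fewer cells of a type and less RNA per cell cannot be told apart.

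Hsd3b5 (probe set 1420531_at) was bright in 1 group alone. Its intensity was 5.75 and 14.97 in LXRα T0901317, 846 and 1079 in LXRα vehicle, 8.40 and 6.59 in GFP T0901317, and 8.10 and 6.82 in GFP vehicle livers. Both LXRα vehicle arrays therefore stood far above the other 6, all of which lay close to the floor. Mean log2 intensities were 3.41 ± 0.70 in LXRα T0901317, 9.90 ± 0.25 in LXRα vehicle, 2.99 ± 0.12 in GFP T0901317 and 2.96 ± 0.08 in GFP vehicle livers (SD, n = 2 each). The 3 dim groups did not differ beyond their spread.

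The LXRα vehicle group exceeded the GFP vehicle group in Hsd3b5 by 6.94 on the log2 scale, or 123-fold. With T0901317 added to LXRα, the difference from LXRα vehicle was -6.49. Without the LXRα transgene, the T0901317 and vehicle arrays overlapped, at a log2 difference of 0.03. The lower of the 2 LXRα vehicle arrays was 56.5-fold above the highest of the other 6 arrays. These values chose the gene and carry no test. The sizes also depend on the floor, because the dim groups lay at it. With an offset of 16 in place of the floor, the LXRα vehicle over GFP vehicle difference was 5.37, or 41.4-fold.

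**Figure D1:**
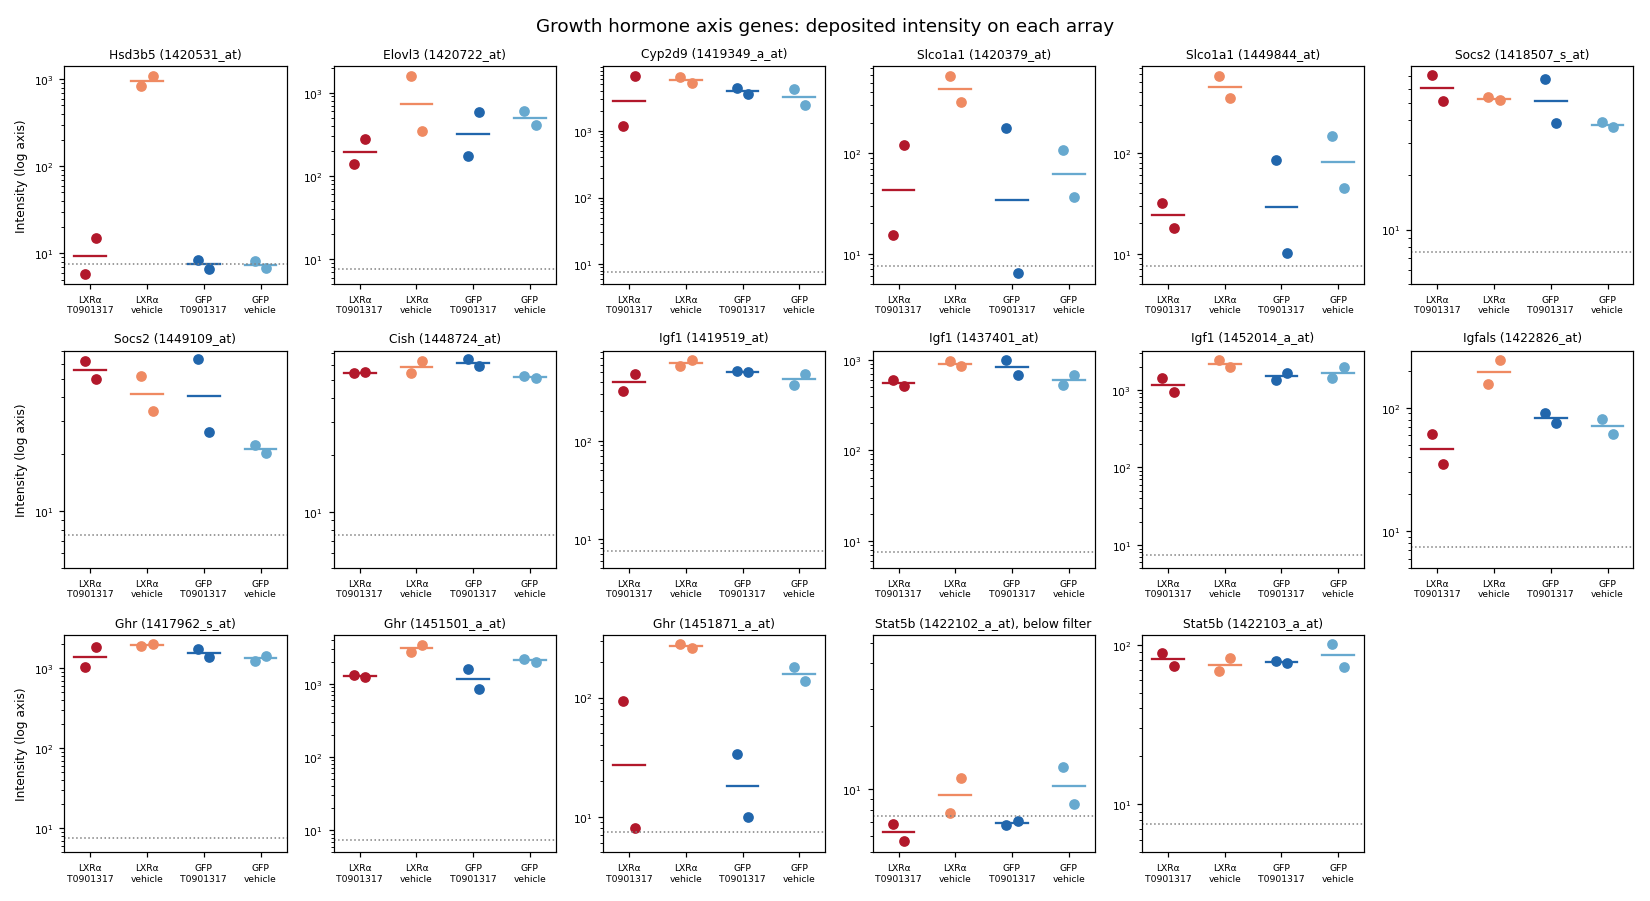
Intensity (log axis) of each of the 17 probe sets on the 8 arrays, with groups from left to right LXRα T0901317, LXRα vehicle, GFP T0901317 and GFP vehicle; each point is 1 liver. Hsd3b5 was at 846 and 1079 in LXRα vehicle livers and at no more than 14.97 elsewhere, whereas no other gene separated by nearly as much.

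Relatives of Hsd3b5 did not share its range. Hsd3b7, a bile acid synthesis enzyme, gave 1272 and 1301 in LXRα T0901317, 2361 and 2267 in LXRα vehicle, 1143 and 1600.4 in GFP T0901317, and 1600.4 and 1428 in GFP vehicle livers. Both LXRα vehicle arrays were the highest, with a log2 difference of 0.61 from GFP vehicle (SE 0.23, limma adjusted p = 0.904) and of -0.85 between LXRα T0901317 and LXRα vehicle (adjusted p = 0.235). Hsd3b3 and Hsd3b2 differed by 0.32 and 0.29 between LXRα vehicle and GFP vehicle, and neither passed the test. Hsd3b1 did not pass the filter, with intensities of 6.47 to 7.93. Of the Y chromosome's transcripts, Eif2s3y lay between 85.1 and 176 over the 8 arrays, and Uty between 31.9 and 52.3 on 1422247_a_at and between 19.5 and 35.5 on 1426598_at. Kdm5d lay between 12.6 and 14.5 on 1424903_at, while its other probe sets, at 3.54 to 3.97 (1452562_at) and 7.21 to 9.49 (1452563_a_at), did not pass the filter. Of the Xist probe sets, which mark the inactive X chromosome of females, 3 were on the array and none passed the filter, with intensities of 3.61 to 10.0. Those 3 Y-linked genes, each on its brightest probe set, differed between LXRα vehicle and GFP vehicle by -0.37, 0.25 and 0.14 (adjusted p = 0.963), and between LXRα T0901317 and LXRα vehicle by 0.24, -0.25 and -0.03.

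Among the other male-biased genes of the group, Slco1a1, which encodes the organic anion transporter OATP1A1 of the hepatocyte membrane, came nearest to Hsd3b5. Its probe set 1449844_at read 32.0 and 17.9 in LXRα T0901317, 577 and 347 in LXRα vehicle, 84.8 and 10.2 in GFP T0901317, and 146 and 45.0 in GFP vehicle livers. Its other probe set, 1420379_at, read 15.2 and 121 in LXRα T0901317, 578 and 321 in LXRα vehicle, 178 and 6.45 in GFP T0901317, and 106 and 36.3 in GFP vehicle livers. On both, the 2 LXRα vehicle arrays were higher than all 6 others. Unlike Hsd3b5, Slco1a1 had signal well above the floor in GFP vehicle livers and spread widely inside both GFP groups.

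The log2 difference of Slco1a1 between LXRα vehicle and GFP vehicle was 2.47 (SE 1.00, limma adjusted p = 0.948) and 2.79 (SE 1.55, adjusted p = 0.963) for these probe sets in the same order. For LXRα T0901317 against LXRα vehicle it was -4.22 (SE 1.00, adjusted p = 0.191) and -3.33 (SE 1.55, adjusted p = 0.403). None passed the threshold of 0.05 over all 15838 probe sets. Adjusted p-values here and below are limma's with Benjamini-Hochberg adjustment over all probe sets of a comparison.

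Elovl3, an elongase of very long fatty acids, was high on 1 LXRα vehicle array only. Intensities were 137 and 279 in LXRα T0901317, 1579.9 and 347 in LXRα vehicle, 172 and 584 in GFP T0901317, and 604 and 403 in GFP vehicle livers. LXRα vehicle and GFP vehicle overlapped, with a log2 difference of 0.58 (SE 0.84, adjusted p = 0.971). Both LXRα T0901317 arrays were below both LXRα vehicle arrays, a difference of -1.92 (SE 0.84, adjusted p = 0.386). Cyp2d9, a cytochrome P450 with testosterone 16α-hydroxylase activity in male mouse liver, gave 1181 and 6642 in LXRα T0901317, 6520.3 and 5299.5 in LXRα vehicle, 4494 and 3544 in GFP T0901317, and 4258 and 2489 in GFP vehicle livers. The LXRα vehicle arrays were above both GFP vehicle arrays by 0.85 (SE 0.73, adjusted p = 0.963), but an LXRα T0901317 array was the brightest of all 8. Cyp2d9 has close relatives in mouse, so its signal may include theirs.

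Igfals encodes the acid-labile subunit, which holds IGF1 and its binding protein in a stable complex in blood, and is made by hepatocytes under growth hormone. It gave 61.7 and 35.3 in LXRα T0901317, 154 and 243 in LXRα vehicle, 90.1 and 75.3 in GFP T0901317, and 81.0 and 61.5 in GFP vehicle livers. LXRα vehicle stood above all other arrays, both GFP groups overlapped, and the higher LXRα T0901317 array met the lower GFP vehicle array. Igfals had the smallest unadjusted p of the 9 genes between LXRα vehicle and GFP vehicle, with a log2 difference of 1.46 (SE 0.36, unadjusted p = 0.0047, adjusted p = 0.647). LXRα T0901317 differed from LXRα vehicle by -2.05 (SE 0.36, adjusted p = 0.146) and from GFP T0901317 by -0.82 (SE 0.36). Without LXRα T0901317 replicate 1, the adjusted p between LXRα T0901317 and LXRα vehicle was 0.0361 at a difference of -2.46, which then passed.

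Igf1, the growth factor that liver secretes in response to growth hormone, was represented by 3 probe sets. For 1437401_at the intensities were 593 and 508 in LXRα T0901317, 954 and 857 in LXRα vehicle, 984 and 683 in GFP T0901317, and 519 and 672 in GFP vehicle livers. Here LXRα vehicle and GFP T0901317 both lay above GFP vehicle and overlapped with each other. Probe set 1419519_at gave 324 and 481 in LXRα T0901317, 577 and 665 in LXRα vehicle, 511 and 503 in GFP T0901317, and 371 and 481 in GFP vehicle livers, so both LXRα vehicle arrays were the highest of the 8. The third, 1452014_a_at, gave 1441 and 937 in LXRα T0901317, 2405 and 1952 in LXRα vehicle, 1354 and 1639 in GFP T0901317, and 1425 and 1955 in GFP vehicle livers. LXRα vehicle and GFP vehicle overlapped on it.

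Log2 differences of Igf1 between LXRα vehicle and GFP vehicle were 0.61, 0.55 and 0.38 for 1437401_at, 1419519_at and 1452014_a_at, with SE of 0.27 to 0.30 and an adjusted p of 0.963 for each. For LXRα T0901317 against LXRα vehicle they were -0.72, -0.65 and -0.90 (adjusted p = 0.344, 0.379 and 0.302), and on all 3 the groups did not overlap. Igf1 thus lay lower in LXRα T0901317 than in LXRα vehicle livers on every probe set, by less than Igfals and without passing the test.

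Ghr encodes the growth hormone receptor and, through another transcript end in mouse, the circulating binding protein. Its 3 probe sets gave the same order of the vehicle groups. Probe set 1451501_a_at read 1329 and 1248 in LXRα T0901317, 2722 and 3427 in LXRα vehicle, 1608 and 854 in GFP T0901317, and 2173 and 1998 in GFP vehicle livers. Probe set 1417962_s_at read 1032 and 1825 in LXRα T0901317, 1909 and 1974 in LXRα vehicle, 1721 and 1383 in GFP T0901317, and 1241 and 1409 in GFP vehicle livers. The dimmest, 1451871_a_at, read 92.8 and 7.98 in LXRα T0901317, 282 and 259 in LXRα vehicle, 33.7 and 9.84 in GFP T0901317, and 180.4 and 138 in GFP vehicle livers. All 3 had both LXRα vehicle arrays above the other 6.

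For 1451501_a_at, 1417962_s_at and 1451871_a_at, the log2 difference of Ghr between LXRα vehicle and GFP vehicle was 0.55, 0.55 and 0.77 (SE 0.32, 0.31 and 1.08). None passed, with adjusted p of 0.963 to 0.970. With T0901317 the probe sets parted in direction and size. The differences of GFP T0901317 from GFP vehicle were -0.83, 0.22 and -3.12, of which the value for 1417962_s_at was -0.20 once the β-actin ratio entered the fit as a term. Those of LXRα T0901317 from LXRα vehicle were -1.25, -0.50 and -3.31. The lowest 3 readings of 1451871_a_at were on the 3 arrays whose β-actin ratio was 7.56 or more, and the part of that ratio in the difference was not tested. Without LXRα T0901317 replicate 1, the array with the low ratio, the difference of 1451871_a_at between LXRα T0901317 and LXRα vehicle was -5.08 with an adjusted p of 0.0330. Without replicate 2, the array with the highest ratio, it was -1.54.

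Stat5b, the transcription factor that carries the male pattern of growth hormone action in mouse liver, did not follow Hsd3b5. Its probe set 1422103_a_at gave 88.9 and 74.1 in LXRα T0901317, 68.9 and 82.4 in LXRα vehicle, 79.1 and 76.8 in GFP T0901317, and 102 and 73.0 in GFP vehicle livers. All groups overlapped with GFP vehicle, and the difference of LXRα vehicle from it was -0.19 (SE 0.24, adjusted p = 0.965). A second Stat5b probe set, 1422102_a_at, lay between 5.67 and 12.8 and did not pass the filter.

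Socs2 and Cish are induced by STAT5 and restrain growth hormone signalling in turn. On 1449109_at, Socs2 gave 61.8 and 50.03 in LXRα T0901317, 51.6 and 33.7 in LXRα vehicle, 63.2 and 26.1 in GFP T0901317, and 22.4 and 20.3 in GFP vehicle livers. The GFP vehicle arrays were the lowest of the 8, and the other 3 groups overlapped. The log2 differences from GFP vehicle were 0.97 for LXRα vehicle and 0.93 for GFP T0901317 (SE 0.42 each, adjusted p = 0.963 and 0.410). The other Socs2 probe set, 1418507_s_at, gave 71.0 and 51.4 in LXRα T0901317, 53.6 and 52.0 in LXRα vehicle, 67.9 and 38.7 in GFP T0901317, and 39.2 and 36.6 in GFP vehicle livers, with differences of 0.48 and 0.44 in those comparisons. In the comparison of LXRα T0901317 with LXRα vehicle, where Hsd3b5 was lower, the values of Socs2 were 0.41 and 0.19, on the other side of 0.

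Cish varied little. It gave 54.3 and 55.5 in LXRα T0901317, 54.9 and 63.0 in LXRα vehicle, 64.5 and 59.6 in GFP T0901317, and 52.4 and 51.5 in GFP vehicle livers. LXRα vehicle exceeded GFP vehicle by 0.18 on the log2 scale (SE 0.18, adjusted p = 0.963), and LXRα T0901317 differed from LXRα vehicle by -0.10. On neither feedback gene were both LXRα vehicle arrays above the other 6.

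Of all tested probe sets 59.8% were higher in LXRα vehicle than in GFP vehicle livers. Over the 15 tested probe sets of the 9 genes other than Hsd3b5, 14 were higher and 1 lower in this comparison. None passed limma's adjusted test, for which the share of all probe sets passing was 0.00631%. That share was Hsd3b5 alone, the gene chosen on these values. Hsd3b5 is also counted in the shares given below for this test, by probe set or gene, where the LXRα vehicle arrays are compared. Of the 15, 2 had an unadjusted p under 0.05, both higher (background 2.27%). On 12 of the 15 both LXRα vehicle arrays exceeded both GFP vehicle arrays, against 30.9% of all probe sets. Their median log2 difference was 0.58, and that of all probe sets was 0.05. The comparison of LXRα T0901317 with LXRα vehicle ran the other way. Of the 15, 12 were lower and 3 higher, where 44.4% of all probe sets were higher. Among the 15, 0 passed the adjusted test (background 0.0253%) and 6 were lower at an unadjusted p under 0.05 (background 5.3%). On 10 the groups did not overlap, all lower, against 28.4% of all probe sets, and the median was -0.90 beside -0.05 for all. Both comparisons use the LXRα vehicle arrays. Ghr and Igf1 have 3 probe sets each, so the counts were also taken by gene, on the brightest probe set of each. In LXRα vehicle against GFP vehicle 8 of the 9 genes were higher, with a median of 0.55, and 6 did not overlap (background 30.5% of genes). In LXRα T0901317 against LXRα vehicle 7 of the 9 were lower, with a median of -1.07, and 5 did not overlap (background 26.7% of genes).

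T0901317 without the LXRα transgene gave no common direction. Between GFP T0901317 and GFP vehicle 8 of the 15 were higher and 7 lower, with a median of 0.22 beside -0.05 for all probe sets. By gene the median had the other sign, at -0.14, with 4 of 9 higher and 5 lower. No member passed the adjusted test in limma (background 0%), and 2 were lower at an unadjusted p under 0.05 (background 4.65%), both of them Ghr probe sets. Groups did not overlap for 4 higher and 2 lower, where the background was 23.2% and 35.2%. Between LXRα T0901317 and GFP T0901317, 6 were higher and 9 lower, with a median of -0.18 beside 0.03. Again 0 passed (background 0%), 0 had an unadjusted p under 0.05 (background 2.24% in either direction), and 4 were lower without overlap (background 8.72%): Igfals, Cish and 2 probe sets of Igf1.

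The difference between the T0901317 effects in the 2 transgene groups was tested as an interaction. It was positive for 46.8% of all probe sets and negative for 14 of the 15, with a median of -0.73 beside -0.02 for all. Of the 15, 0 passed the adjusted test (background 0.00631%). At an unadjusted p under 0.05, 2 were lower (background 2.42%). These were Igfals at -2.28 (SE 0.50, adjusted p = 0.906) and Igf1 1437401_at at -1.19 (SE 0.38, adjusted p = 1.00). Over all 8 arrays, 7 of the 15 probe sets had their 2 LXRα vehicle readings above all 6 others, against 12.4% of all probe sets, and none had them below (background 5.45%). The 7 belonged to Slco1a1, Igfals, Ghr and Igf1, with gaps of 0.07 to 1.25 on the log2 scale, beside the gap of 5.82 for Hsd3b5. By gene the count was 3 of 9, namely Slco1a1, Igfals and Ghr, against 11.7% of genes.

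**Figure D2:**
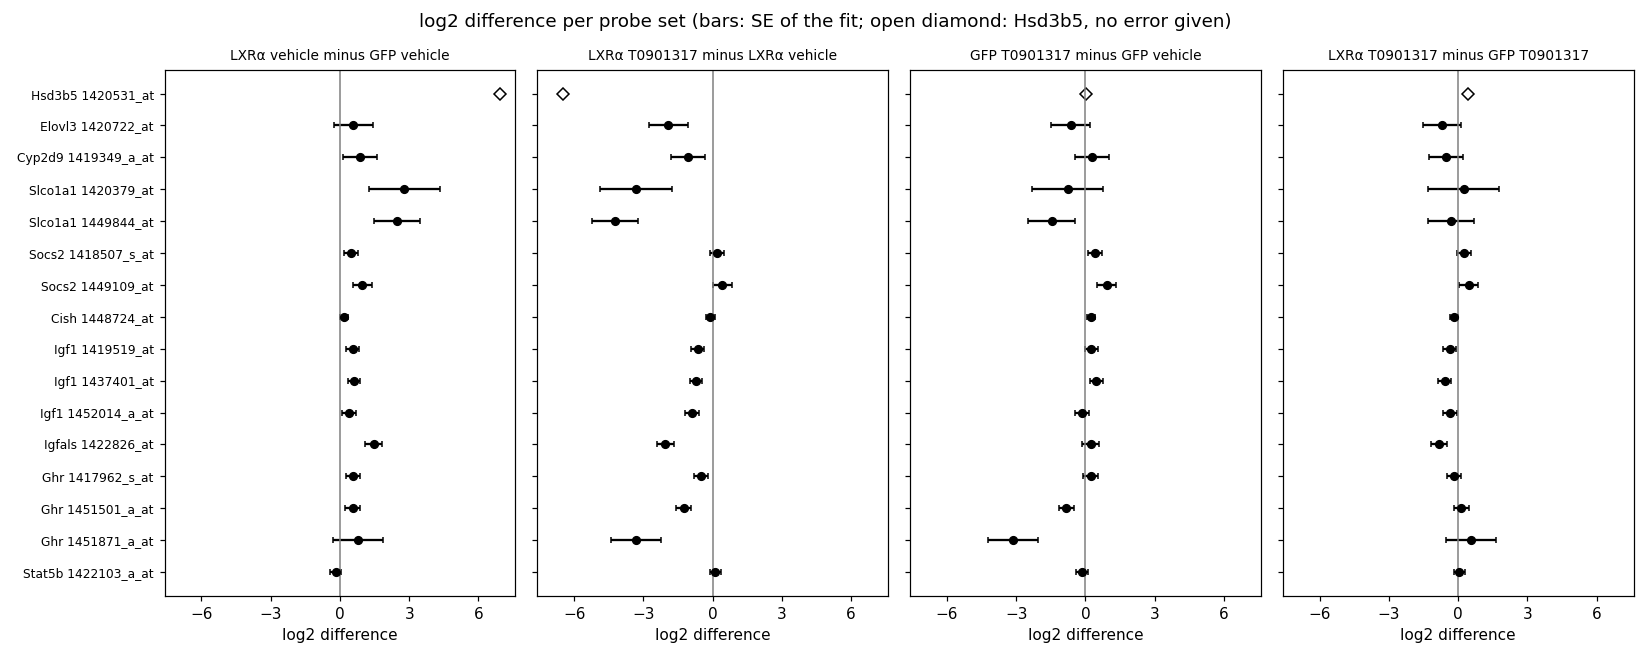
Log2 difference of each tested probe set of the 10 genes in the 4 comparisons, with limma's SE as bars; Hsd3b5 is drawn without a bar because it was chosen on these values. Beside 6.94 and -6.49 for Hsd3b5, Slco1a1 1449844_at lies at 2.47 and -4.22 and Igfals at 1.46 and -2.05.

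A wider list of 20 genes with higher expression in male mouse liver was set beside these, of which 14 were in the probe table and 12 were tested. Of the 12, 11 were higher and 1 was lower in LXRα vehicle than in GFP vehicle livers, with a median log2 difference of 1.21 beside 0.05 over all 9359 genes. None passed the adjusted test (background 0.0107% of genes), and 5 were higher at an unadjusted p under 0.05 (background 2.48% of genes). On 8 the LXRα vehicle arrays lay above both GFP vehicle arrays (background 30.5%). Between LXRα T0901317 and LXRα vehicle 9 were lower and 3 higher, with a median of -0.95, none passed (background 0.0321%), and 4 were lower at an unadjusted p under 0.05 (background 4.7%). Moxd1, a member of this list chosen for mention after its values were seen, passed the filter only through 1 LXRα vehicle array: it read 6.77 and 7.31 in LXRα T0901317, 7.597 and 1008 in LXRα vehicle, 6.66 and 11.4 in GFP T0901317, and 7.34 and 7.05 in GFP vehicle livers. It is counted among the 8. For the 11 genes without it, 10 were higher in LXRα vehicle than in GFP vehicle at a median of 1.09, and 8 were lower and 3 higher in LXRα T0901317 than in LXRα vehicle at a median of -0.88.

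Cyp7b1, the oxysterol 7α-hydroxylase, gave 152 and 374 in LXRα T0901317, 1267 and 3895 in LXRα vehicle, 399 and 453 in GFP T0901317, and 539 and 230.3 in GFP vehicle livers. Both LXRα vehicle arrays were the highest, and the log2 difference from GFP vehicle was 2.66 (SE 0.68, adjusted p = 0.685). Nudt7, a peroxisomal hydrolase of coenzyme A, gave 1231 and 3362 in LXRα T0901317, 6399.8 and 6346 in LXRα vehicle, 1865 and 3573 in GFP T0901317, and 2237 and 2027 in GFP vehicle livers, a difference of 1.58 (SE 0.50, adjusted p = 0.858). Egfr, the receptor of epidermal growth factor, differed by 1.49 (SE 0.49, adjusted p = 0.872) and Ugt2b38, a glucuronosyltransferase, by 1.32 (SE 0.55, adjusted p = 0.953). Between LXRα T0901317 and LXRα vehicle, Cyp7b1 differed by -3.22, Nudt7 by -1.65, Egfr by -1.63 and the major urinary protein gene Mup3 by -1.03, with adjusted p of 0.176 to 0.275. Cyp7b1, Nudt7 and Egfr, each on its brightest tested probe set, were the 3 of 12 with both LXRα vehicle arrays above the other 6 (background 11.7% of genes). Another tested probe set of Egfr overlapped, at 430 and 761 in LXRα vehicle livers and 632 on a GFP T0901317 array. The dimmest tested probe set of Egfr did not overlap, at 38.6 and 114 in LXRα vehicle livers and at most 23.1 elsewhere. With the 3 arrays of high β-actin ratio left out, a setting added after seeing the data, the count was 7 of 12, Moxd1 included, where the background was 22.2% of genes.

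Of a list of 23 female-biased genes 11 were tested, and 6 were higher and 5 lower in LXRα vehicle than in GFP vehicle livers, with a median of 0.04. In 5 of them the groups did not overlap with LXRα vehicle higher (background 30.5% of genes), and 1 was lower at an unadjusted p under 0.05 (background 3.13%). From LXRα vehicle to LXRα T0901317, 5 of the 11 were higher and 6 lower, with a median of -0.21. At an unadjusted p under 0.05, 2 were higher and 1 lower (backgrounds 8.58% and 4.7% of genes). Both LXRα vehicle arrays were above the other 6 for 5 of the 11 (background 11.7% of genes), by gaps of 0.012 to 0.040 on the log2 scale. These were Cyp3a16, Cux2, Slc22a27, Tox and Slc22a26, the last 2 named after their values were seen. The corresponding gaps of Cyp7b1, Nudt7 and Egfr were 1.23, 0.83 and 0.23. Most were dim, as in Cyp3a16, a cytochrome P450, at 9.97 to 14.8, and Cux2, a homeobox repressor, at 10.6 to 16.9. Abcd2, a peroxisomal fatty acid transporter, gave 15.3 and 19.7 in LXRα T0901317, 6.59 and 5.84 in LXRα vehicle, 10.5 and 12.0 in GFP T0901317, and 12.7 and 22.7 in GFP vehicle livers. It was the 1 gene of the list with both LXRα vehicle arrays below the other 6 (background 5.88% of genes), at differences of -1.18 from GFP vehicle (adjusted p = 0.620) and 1.21 between LXRα T0901317 and LXRα vehicle (adjusted p = 0.182). Acot3, a peroxisomal thioesterase, gave 218 and 80.0 in LXRα T0901317, 17.7 and 12.2 in LXRα vehicle, 129 and 19.0 in GFP T0901317, and 13.4 and 23.3 in GFP vehicle livers. Cyp2b9 was at 52.6 on 1 GFP T0901317 array and 52.0 on 1 GFP vehicle array and at no more than 10.9 on the others, and Slc22a27 differed by 0.17 between LXRα vehicle and GFP vehicle.

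**Figure D3:**
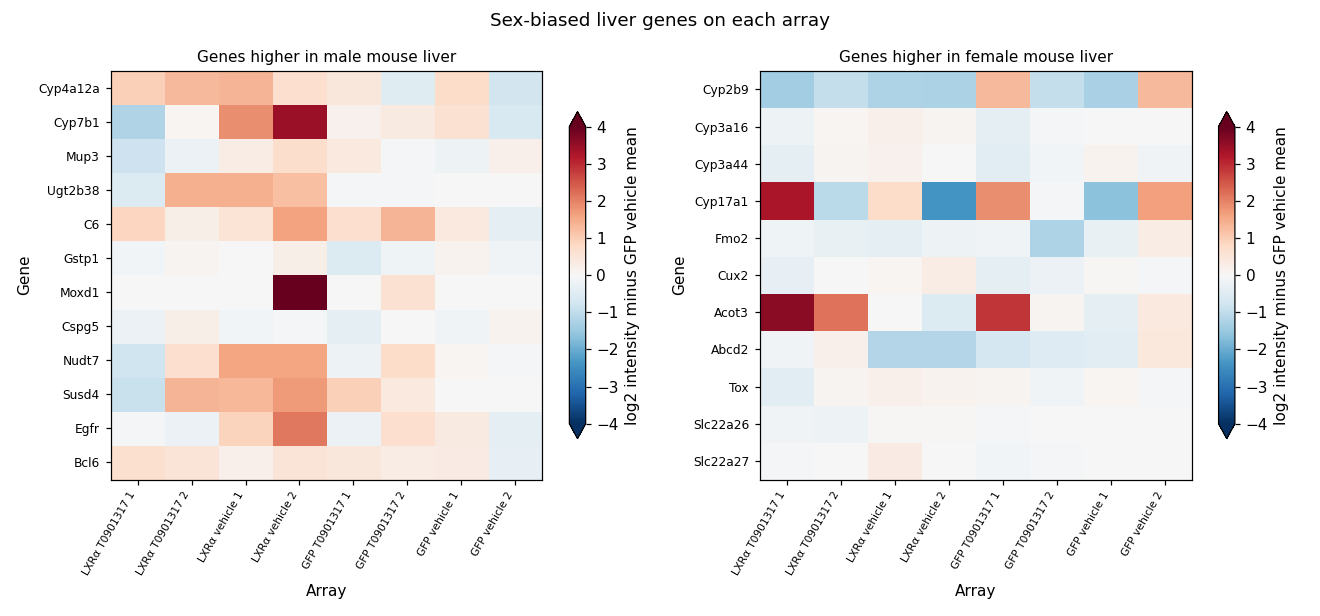
Log2 intensity of the tested male-biased and female-biased genes relative to the mean of the GFP vehicle arrays, as a colour for each array (columns, from LXRα T0901317 at left to GFP vehicle at right) and gene (rows). The per-array median of the male-biased list was 0.73 and 1.40 in LXRα vehicle livers and at most 0.32 on the other arrays, and that of the female-biased list stayed within 0.16 of 0.

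Components of the axis outside the 10 genes were taken from a list of 25, of which 19 were tested. In LXRα vehicle against GFP vehicle 13 were higher and 6 lower, with a median of 0.18, and 1 was lower at an unadjusted p under 0.05 (background 3.13% of genes). That gene was Ptpn6, the phosphatase SHP-1 of blood cells, at -1.08 (SE 0.27, adjusted p = 0.685). Igfbp3, the binding protein that joins IGF1 and the acid-labile subunit in the complex, ran against Igfals. It gave 255 and 383 in LXRα T0901317, 99.9 and 101 in LXRα vehicle, 377 and 183 in GFP T0901317, and 202 and 168 in GFP vehicle livers. Both LXRα vehicle arrays were the lowest, with differences of -0.88 from GFP vehicle (SE 0.38, adjusted p = 0.963) and 1.64 between LXRα T0901317 and LXRα vehicle (SE 0.38, adjusted p = 0.190). Other phosphatases and binding proteins gave 0.66 for Ptpn11, 0.66 for Ptpn1 and 0.94 for Igfbp7 in the second of these comparisons, and Igfbp4 gave 0.42 in the first. Over the 19, 13 were higher and 6 lower in LXRα T0901317 than in LXRα vehicle livers, with a median of 0.13. At an unadjusted p under 0.05, 5 were higher (background 8.58% of genes). Between GFP T0901317 and GFP vehicle 14 were higher and 5 lower, with a median of 0.34. There 4 were higher at an unadjusted p under 0.05 (background 9.11% of genes).

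Liver transcription factors that work with STAT5 at such genes were taken from a list of 8, of which 7 were tested. All 7 were higher in LXRα vehicle than in GFP vehicle livers, with a median of 0.52, and 2 of them had an unadjusted p under 0.05 (background 2.48% of genes). These were Onecut1 at 0.81 (SE 0.29, adjusted p = 0.881) and Hnf4a, the hepatocyte nuclear factor, at 0.68 (SE 0.27, adjusted p = 0.942). Cebpb and Cebpa gave 0.54 and 0.45. Between GFP T0901317 and GFP vehicle 6 of the 7 were higher too, with a median of 0.59, and 1 of them had an unadjusted p under 0.05 (background 9.11% of genes). For LXRα T0901317 against LXRα vehicle the median was -0.13, with Rxra, the partner of LXRα in its dimer, at -1.16 (SE 0.38, adjusted p = 0.296), Onecut1 at -0.83, Foxa2 at 0.54 and Foxa1 at 0.27.

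Inflammation and time of day both act on growth hormone signalling or on its targets, so their genes were listed too. Of 18 acute phase genes 15 were higher and 3 lower in LXRα vehicle than in GFP vehicle livers, with a median of 0.43 and 0 with an unadjusted p under 0.05 (background 5.61% in either direction). Saa2, serum amyloid A, gave 1276 and 4733 in LXRα T0901317, 2575 and 19303 in LXRα vehicle, 8724 and 25535 in GFP T0901317, and 760.4 and 3156 in GFP vehicle livers. Both GFP T0901317 arrays were above both GFP vehicle arrays, by 3.27 on the log2 scale (SE 1.17, adjusted p = 0.316), while the LXRα vehicle arrays overlapped with GFP vehicle and spread widely. For LXRα vehicle against GFP vehicle, Saa1 gave 1.70 (SE 1.06), Fgg 0.46 and Crp 0.46. Between LXRα T0901317 and LXRα vehicle 16 of the 18 were lower and 2 higher, with a median of -0.70, and 5 were lower at an unadjusted p under 0.05 (background 4.7% of genes). The interaction was negative for 17 of the 18, with a median of -0.99, and 4 were lower at an unadjusted p under 0.05 (background 2.61% of genes). The smallest unadjusted p of the list between LXRα T0901317 and LXRα vehicle were those of Lbp at -1.33, Steap4 at -1.28, Fgg at -0.71 and Crp at -0.63. Their adjusted p was 0.279 to 0.335 in limma. In GFP T0901317 against GFP vehicle 13 of the 18 were higher, with a median of 0.30. By array, the median of the list relative to GFP vehicle was -0.30 and -0.15 in LXRα T0901317, -0.06 and 0.78 in LXRα vehicle, 0.20 and 0.45 in GFP T0901317, and -0.17 and 0.17 in GFP vehicle livers. The acute phase genes were thus high on 1 of the 2 LXRα vehicle arrays, and the part of inflammation in the differences was not tested. Of 12 tested clock genes 10 were higher in LXRα vehicle than in GFP vehicle livers, with a median of 0.33 and Dbp at 1.52 (SE 0.74). With T0901317 added to LXRα, 5 were higher and 7 lower, at a median of -0.07. Cry1, Nr1d2 and Tef gave 0.44, 0.50 and 0.49 in the first comparison, and Per2 and Per3 gave 0.61 and -0.20 in the second. Without the LXRα transgene, GFP T0901317 against GFP vehicle, 11 clock genes were higher and 1 lower, with a median of 0.47. No clock gene had both LXRα vehicle arrays above the other 6 (background 11.7% of genes). The hour of collection is not given in the labels, and its part was not tested.

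Markers of macrophages, stellate cells and endothelial cells were mostly at lower values in LXRα vehicle livers. All 12 tested macrophage markers were lower in LXRα vehicle than in GFP vehicle livers, with a median of -1.34, and 0 passed limma's adjusted test (background 0.0107% of genes) while 6 had an unadjusted p under 0.05 (background 3.13%). Their summed intensity ranged over 10419 to 11389 in LXRα T0901317, 4003 to 10206 in LXRα vehicle, 9416 to 16289 in GFP T0901317 and 14099 to 15430 in GFP vehicle livers. Of 10 stellate cell markers 9 were lower, with a median of -0.61 and sums of 3251 to 3763 in LXRα T0901317, 1077 to 1344 in LXRα vehicle, 2692 to 3801 in GFP T0901317 and 1992 to 3343 in GFP vehicle livers. Endothelial markers had a median of -0.24 with 6 of 7 lower. In LXRα T0901317 against LXRα vehicle the markers lay on the other side. Of the macrophage markers 10 of 12 were higher, with a median of 0.83 and 1 at an unadjusted p under 0.05 (background 8.58% of genes). Of the stellate markers 9 of 10 were higher, with a median of 1.23 and 6 at an unadjusted p under 0.05, and of the endothelial markers 6 of 7 were higher, with a median of 0.34 and 3 at an unadjusted p under 0.05. None of these passed the adjusted test in limma (background 0.0321% of genes). Of the 7 tested hepatocyte markers 5 were higher in LXRα vehicle than in GFP vehicle livers, with a median of 0.13, and 2 had an unadjusted p under 0.05 (background 2.48% of genes). These, named after their values were seen, were Cps1, an enzyme of the urea cycle, at 0.89 (SE 0.19, adjusted p = 0.580) and Hpd, an enzyme of tyrosine breakdown, at 0.50 (SE 0.19, adjusted p = 0.904). The 2 lower markers were Asgr1 at -0.33 and Alb at -0.10. Cps1 and Hpd were not particular to LXRα vehicle, with 0.99 and 0.46 between GFP T0901317 and GFP vehicle. There the other 5 markers were lower. In LXRα T0901317 against LXRα vehicle 6 of the 7 were lower, with a median of -0.15. Lymphocyte, cholangiocyte and erythroid markers had medians of 0.14, -0.15 and 0.02 over 4, 2 and 2 genes in LXRα vehicle against GFP vehicle. None of these markers lay at or under the floor on all arrays. The part of cell makeup in the results was not tested.

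**Figure D4:**
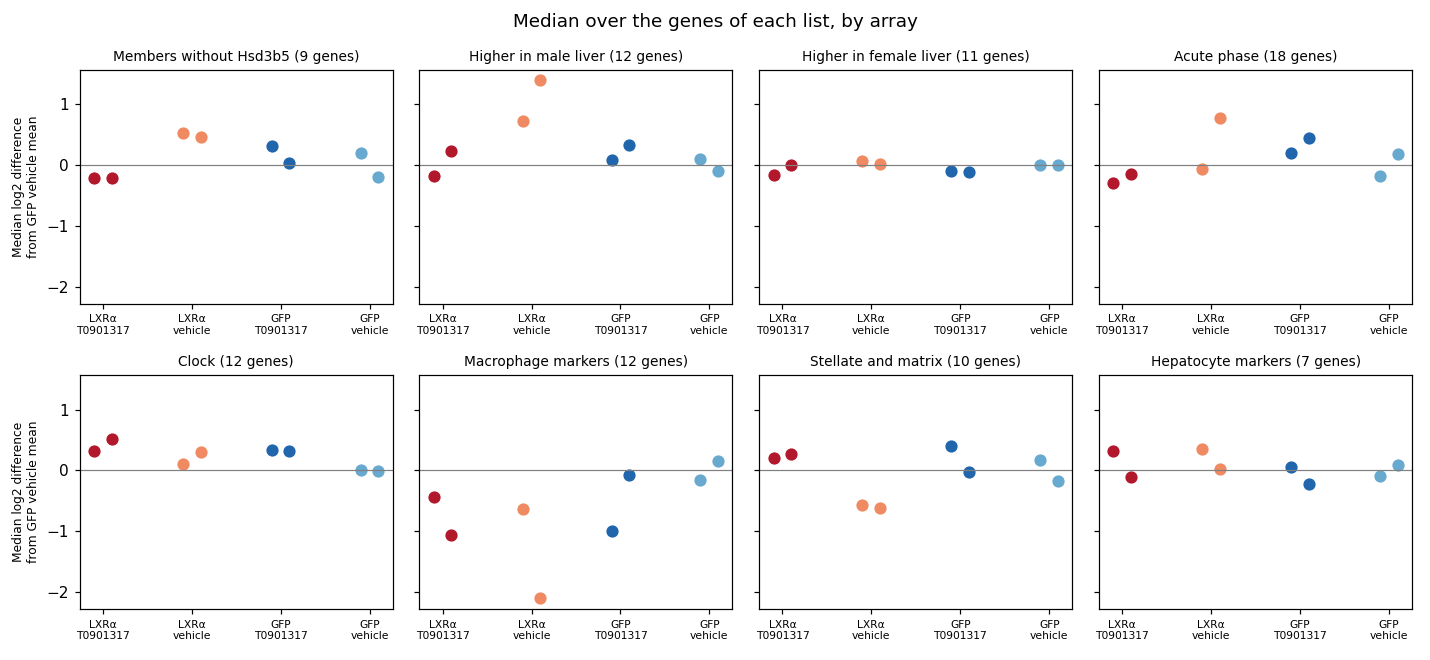
Median log2 intensity of each gene list on each of the 8 arrays, relative to the mean of the GFP vehicle arrays; points are arrays and colours are the 4 groups. For the 9 axis genes, 1 probe set per gene, the 2 LXRα vehicle arrays lay at 0.53 and 0.46, against -0.21 and -0.22 in LXRα T0901317, 0.31 and 0.03 in GFP T0901317 and 0.20 and -0.20 in GFP vehicle livers.

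Likeness to Hsd3b5 was measured over the 8 arrays as the gap between the lower LXRα vehicle array and the highest of the other 6, on the log2 scale, with 1 probe set per gene. Hsd3b5 stood alone at 5.82. The 10 genes that came next were Cyp7b1 at 1.23, B3galt1 at 0.91, Slco1a1 at 0.85, Nudt7 at 0.83, Igfals at 0.77, Slc22a7 at 0.74, Hes6 at 0.72, Pim3 at 0.71, Aspdh at 0.68 and Slc38a3 at 0.65. Slco1a1 and Igfals are axis genes of the 10 followed here, and Cyp7b1 and Nudt7 belong to the male-biased list. Slc22a7, an organic anion transporter, gave 16.5 and 22.6 in LXRα T0901317, 279 and 784 in LXRα vehicle, 60.4 and 167 in GFP T0901317, and 64.3 and 53.2 in GFP vehicle livers, so that LXRα vehicle was on top and LXRα T0901317 at the bottom. Pim3, a kinase, gave 93.7 and 73.1 in LXRα T0901317, 242 and 212 in LXRα vehicle, 129.9 and 106 in GFP T0901317, and 82.3 and 94.1 in GFP vehicle livers. In the opposite direction the 5 widest gaps were those of Ly6d at 2.95, Cyp4a14 at 2.13, Gstm3 at 1.63, Nid1 at 1.47 and Cbr3 at 1.14. These genes were picked for their pattern, so their gaps are a description and carry no test.

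**Figure D5:**
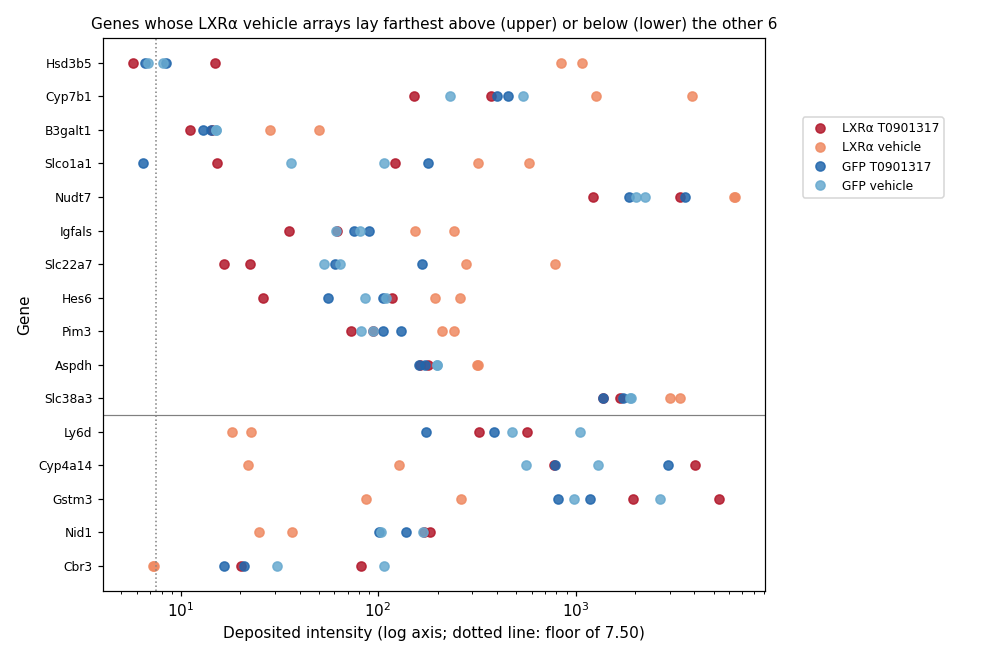
Intensity (log axis) on the 8 arrays of Hsd3b5 and of the genes (rows) whose LXRα vehicle arrays were set apart most widely above or below the other 6; each point is 1 liver and its colour gives the group. Hsd3b5 spans from 5.75 to 1079, and the next gene, Cyp7b1, from 152 to 3895 with a gap of 1.23 on the log2 scale.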

How the data were processed

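Liver RNA was measured on 8 Affymetrix arrays, 1 per mouse, in 4 groups of 2 taken from the labels. The values deposited by the authors are 1 intensity per probe set and array, taken as linear from their range. How probes were summarised and arrays scaled is not given in the labels used here. Symbols came from the platform's annotation as provided for this work. No sample column was left unused.

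Before taking log2, values under 7.50, the 20th percentile of the positive signals outside control probe sets, were set to it. Array medians of 4.39 to 4.53 lay within 0.2 of each other, and no rescaling was applied. A filter kept probe sets whose mean over the 8 arrays exceeded the 30th percentile. The test was limma 3.58.1 in R 4.3.3, with 1 fit of 4 group means on all 8 arrays, eBayes with an intensity trend (4 residual and 2.93 prior degrees of freedom), and Benjamini-Hochberg adjustment over all 15838 probe sets of a comparison; an adjusted p under 0.05 passed. The SE is limma's. P-values measure the spread between these samples, and 2 arrays per group limit the precision of every value. The steps were tested on simulated data.

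All probe sets of the 10 genes were named, with up to 4 genes a list by smallest unadjusted p in LXRα vehicle over GFP vehicle and in LXRα T0901317 over LXRα vehicle, every measured Hsd3b and sex chromosome gene, and the 10 and 5 genes of widest gap. A gene stood as its brightest tested probe set with 1 symbol. The members and lists were chosen with earlier results of these data known. Alternatives were quantile normalization, centring, another floor, an offset, other filters, no trend, robust spread, a replicate block, the β-actin ratio as covariate, the compared groups alone, and each array left out in turn.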

Additional observations from a re-analysis of the deposited data

Results flagged for a closer look

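For 2 of the 3 Igf1 probe sets, every T0901317 array went one way with the GFP transgene and the other way with the LXRα transgene. On 1437401_at both LXRα T0901317 arrays were below both LXRα vehicle arrays, and both GFP T0901317 arrays were above both GFP vehicle arrays. The T0901317 effect with LXRα minus that with GFP was -1.19 on the log2 scale (SE 0.38, limma adjusted p = 1.00 for the interaction). On 1419519_at it was -0.914 (SE 0.39, adjusted p = 1.00), with the same separation of arrays. Its GFP T0901317 over GFP vehicle part, 0.26, was -0.051 once the β-actin ratio entered the fit as a term, and that ratio was 7.56 and 11 on the GFP T0901317 arrays, against 2.21 and 2.08 on the GFP vehicle arrays. Neither difference passed the test of the interaction. The third probe set, 1452014_a_at, gave -0.73 (SE 0.42), and its GFP T0901317 and GFP vehicle arrays overlapped.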

How the results depend on the processing

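The count of probe sets passing among the 15 was 0 in all 5 contrasts under every alternative run, with 1 exception: leaving out arrays in turn gave 0 to 2 for LXRα T0901317 over LXRα vehicle and 0 to 0 for the others. The 2 appeared without LXRα T0901317 replicate 1 (Igfals, adjusted p = 0.0361; Ghr 1451871_a_at, 0.0330), a fit in which the lone sample left in that group is assumed to vary like the other groups. With a replicate block the count was 0 in each contrast. The 75 single differences could not change under it, because every group holds 1 array of each replicate number. Same-numbered samples had deviations correlating at -0.138 to 0.247, which cannot show whether the numbers pair the samples. Hsd3b5 differed by 6.94 between LXRα vehicle and GFP vehicle (6.76 to 7.11 leaving out arrays) and by -6.49 between LXRα T0901317 and LXRα vehicle (-6.99 to -5.996). An offset of 16 in place of the floor gave 5.37 and -5.23, since it compresses dim values.

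Of the counts added after seeing the data, the 7 of 15 probe sets with both LXRα vehicle arrays on top became 8 with quantile normalization, 6 with centring, 7 with the lower floor and 10 without the 3 arrays of high β-actin ratio (backgrounds 8.5%, 5.94%, 12.4% and 23.2%). For the male-biased list 3 of 12 became 7 without those 3 arrays (background 22.2% of genes). The 12 of 15 higher without overlap in LXRα vehicle over GFP vehicle became 13 with quantile normalization (26.1%) and was 12 with centring (23.4%) or the lower floor (30.9%). The 10 lower in LXRα T0901317 over LXRα vehicle was 10 with quantile normalization (21.7%) or the lower floor (28.4%), 9 with centring (14.3%) and 12 without the 3 arrays (47.9%), the background standing in brackets.

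Single differences and alternatives made 1440 pairs, of which a part could not change direction. No trend, robust spread, a replicate block, other filters and the compared groups alone leave a difference as it is. So does leaving out an array of a group that is not compared. Of all 1440 pairs, 1401 kept direction and side of the threshold, 2 kept direction alone and 37 reversed sign, 31 of these by leaving out 1 array. The other 6 were, with the β-actin ratio as covariate, GFP T0901317 over GFP vehicle for Cyp2d9 (-1.04), Igf1 1419519_at (-0.051) and 1452014_a_at (0.17) and Ghr 1417962_s_at (-0.20), Stat5b in LXRα T0901317 over LXRα vehicle with quantile normalization (-0.0075), and Slco1a1 1420379_at in LXRα T0901317 over GFP T0901317 with the offset (-0.010); the cause was not tested. Ranges over left-out arrays that crossed 0 follow. LXRα vehicle over GFP vehicle: Elovl3 -0.51 to 1.68, Stat5b -0.43 to 0.046. GFP T0901317 over GFP vehicle: Elovl3 -1.52 to 0.24, Cyp2d9 -0.093 to 0.68, Slco1a1 -3.05 to 1.52 and -2.99 to 0.066, Igf1 1452014_a_at -0.39 to 0.064, Stat5b -0.38 to 0.095. LXRα T0901317 over LXRα vehicle: Cyp2d9 -2.32 to 0.18, Socs2 1418507_s_at -0.039 to 0.43, Stat5b -0.024 to 0.24. LXRα T0901317 over GFP T0901317: Elovl3 -1.58 to 0.19, Cyp2d9 -1.76 to 0.73, Slco1a1 -2.05 to 2.52 and -1.82 to 1.24, Socs2 -0.17 to 0.64 and -0.19 to 1.09, Ghr -0.58 to 0.24, -0.32 to 0.59 and -1.19 to 2.35, Stat5b -0.074 to 0.19. Interaction: Socs2 -0.65 to 0.17 and -1.15 to 0.13, Ghr 1451501_a_at -0.87 to 0.041 and 1451871_a_at -1.97 to 1.58. The compared groups alone could not be fitted for the interaction, nor contrasts with GFP T0901317 without the 3 high-ratio arrays. Signal near the floor limits Hsd3b5 outside LXRα vehicle, Ghr 1451871_a_at and Slco1a1 on dim arrays.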
